A study of Mus musculus with 6 samples.

Results

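OSCAR, TREM2, the LILR-type receptors and the paired receptors PILR and CD300 are immunoglobulin-like receptors on the surface of macrophages and osteoclasts. The receptor genes described here are Oscar, Tarm1, Trem1, Trem2, Lilr4b, Lilrb3, Pilra, Cd300a, Cd300lf and Cd300lb. They were chosen by gene symbol among 23282 gene entries, which gave 9 of the 10 genes. The tenth, Lilrb3, stood in the count tables as Pirb, the symbol with which RefSeq pairs it, and is given below as Pirb. Expression was measured in RAW 264.7 cells, a mouse macrophage line that can form multinucleated, bone-resorbing osteoclasts. The treatment label divided the 6 samples into 3 marked CPN and 3 controls, and both groups were at day 5 of osteoclast differentiation. The series is titled for a chaperonin of 60 kDa, and the labels give neither its source, dose and time of addition nor the agent that drove differentiation. Nothing in the labels states separate cultures for the samples, and the p-values reflect no more than the spread among these 6, which may be technical.

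Receptors of this kind work through short motifs in the cell. Activating members such as OSCAR, TREM1 and TREM2 carry a charged residue in the membrane and signal through the partner proteins FcRγ (encoded by Fcer1g) or DAP12 (Tyrobp), whose ITAM motifs recruit the kinase SYK. Inhibitory members such as PIR-B, PILRA, CD300A and CD300LF carry ITIM motifs that recruit the phosphatases SHP-1 (Ptpn6) and SHIP-1 (Inpp5d). In osteoclast precursors the ITAM signal acts together with RANK to raise calcium and to activate NFATc1, the transcription factor that drives osteoclast formation.

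In CPN cells 4 of the 10 receptor genes fell and 2 rose, while 3 did not pass the test and 1 was too low to test. Trem2, Oscar, Cd300a and Cd300lb were lower, by between 2.13-fold and 5.16-fold. Lilr4b was 8.55-fold higher, and Tarm1 was detected in every CPN library and in no control library. Expression is given in CPM, the library-scaled count, here with TMM factors. A gene was called where edgeR's quasi-likelihood test gave an adjusted p below 0.05, with Benjamini-Hochberg adjustment across the 11092 genes tested. Among all tested genes 14% passed this test, 6.39% as lower and 7.62% as higher. The CPN values lay below all control values for 5 of the receptor genes and above them for 3, against 15.7% and 16.9% of all tested genes (32.6% in either direction). The median log2 fold change of the 9 tested receptor genes was -1.09, against -0.01 for all tested genes. Of the 9, Tarm1 passed the low-count filter through its CPN libraries alone and Pirb through its control libraries alone, so their direction was fixed by that filter. Of the 7 that either group alone would have kept, 4 were lower and 1 higher. In these bulk samples, fewer cells of a type and less RNA per cell cannot be told apart.

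**Figure D1:**
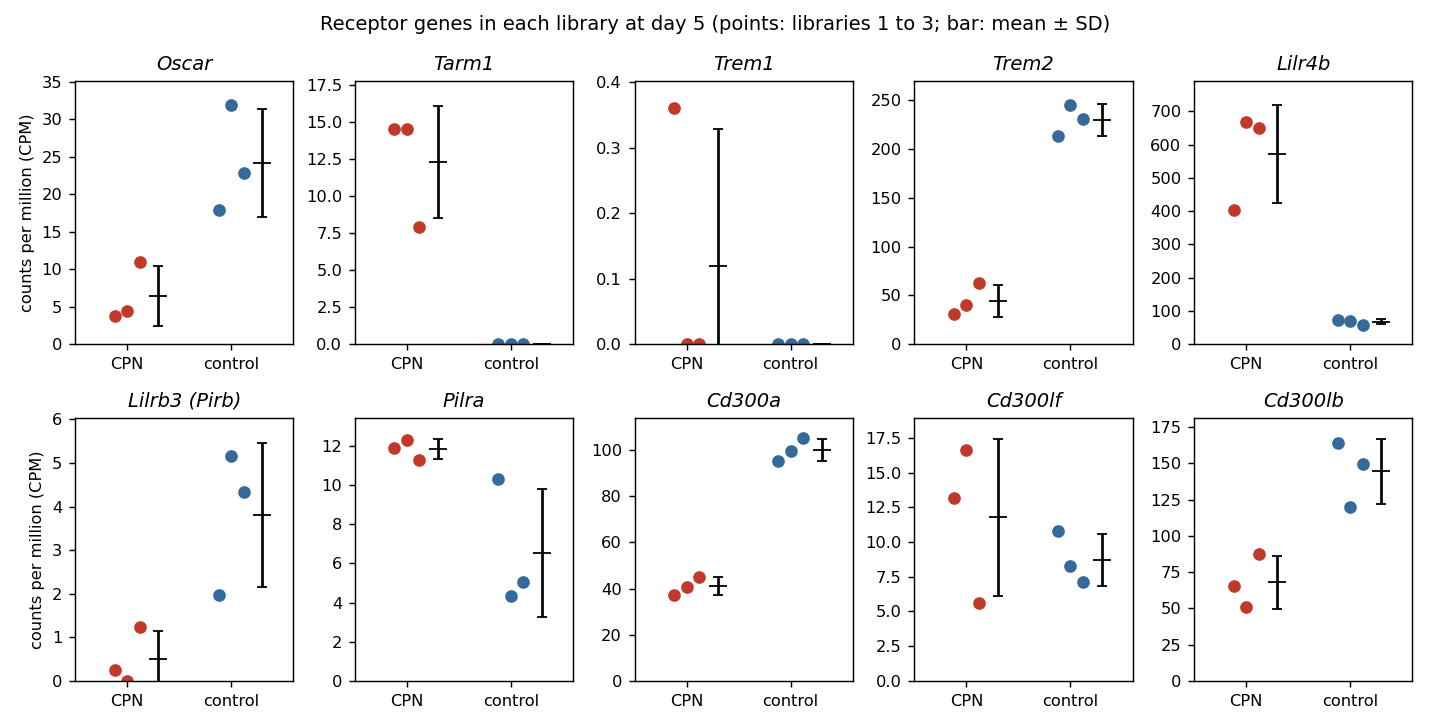
Expression of the 10 receptor genes in CPM in each library, with CPN on the left and control on the right, a point per library and a bar for the mean ± SD (n = 3 per group). Each panel has its own axis from 0. Oscar, Trem2, Pirb, Cd300a and Cd300lb have all CPN points below the control points, Tarm1, Lilr4b and Pilra have all CPN points above, and Trem1 reaches 0.36 CPM in 1 CPN library.

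**Figure D2:**
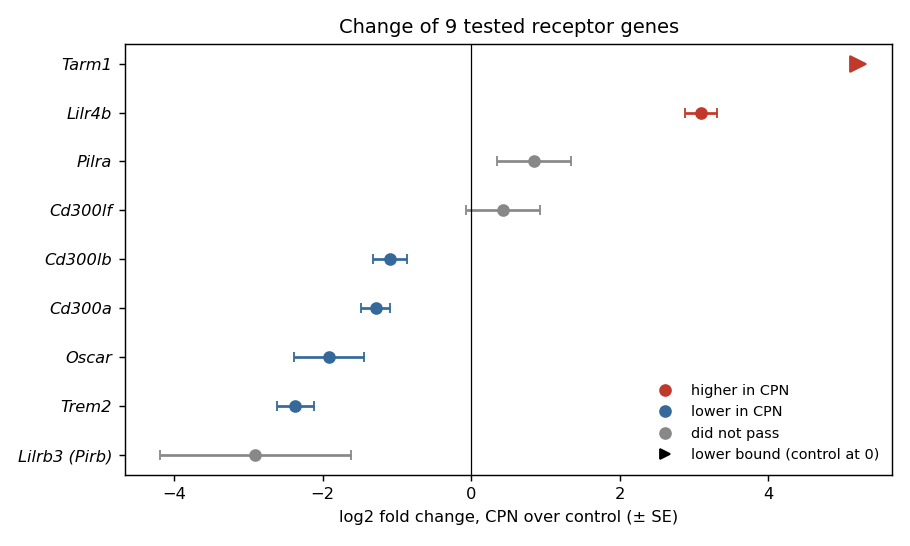
Log2 fold change of CPN over control with its SE (edgeR) for the 9 tested receptor genes, coloured by whether they passed at an adjusted p of 0.05. The arrow for Tarm1 marks its value against a floor of 3 counts per control library, since the control libraries were at 0. Lilr4b lies at 3.10 and Trem2 at -2.37, and the widest interval is that of Pirb.

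The libraries held between 7957228 and 9713938 counts, so that 3 counts correspond to between 0.294 and 0.393 CPM. Of 707 genes averaging 6 to 12 counts, each library lacked counts for a share that ranged from 14.0% to 41.2%. Of 10 tested osteoclast markers, Oscar itself among them, 8 were lower and 1, Mmp9, was higher in CPN. Of 7 tested macrophage markers 3 were higher and 1 lower. The shares over all tested genes were 6.39% lower and 7.62% higher. Calcr, which marks mature osteoclasts, had 0 counts in the CPN libraries and 3 in all in the control libraries. Lymphocyte markers summed to at most 0.48 CPM in CPN and 0.785 CPM in control libraries, and dendritic cell markers to at most 3.54 CPM in CPN and 4.21 CPM in control libraries. With library totals alone as the scale, the median over all tested genes was -0.13 on the log2 scale, and there were 690 higher and 914 lower genes, where TMM gave 845 and 709. Under that scaling the same 4 receptor genes were lower and the same 2 higher.

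The bases just upstream of the annotated start are shown for the receptor genes that fell most (Trem2 and Oscar) and for those that rose (Tarm1 and Lilr4b), since a reader may want to set their control regions side by side. The sequences are from RefSeq on GRCm38.p6, 250 bases each, printed 5′ to 3′ on the strand of the gene. RefSeq held such an entry for all 10 receptor genes. Capitals mark the letters GGAAA, the core bound by NFAT, and the letters CATGTG or CACGTG, E-boxes of the kind bound by MITF, on either strand. The Oscar window is chr7:3616158-3616407 on the minus strand, that of Tarm1 is chr7:3502625-3502874 on the minus strand, that of Trem2 is chr17:48346151-48346400 on the plus strand and that of Lilr4b is chr10:51480362-51480611 on the plus strand.
Oscar: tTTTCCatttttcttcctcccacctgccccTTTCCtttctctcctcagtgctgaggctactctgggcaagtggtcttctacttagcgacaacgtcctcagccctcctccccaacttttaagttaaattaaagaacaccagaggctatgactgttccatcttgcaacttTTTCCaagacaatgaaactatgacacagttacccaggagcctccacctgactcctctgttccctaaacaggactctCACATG
Trem2: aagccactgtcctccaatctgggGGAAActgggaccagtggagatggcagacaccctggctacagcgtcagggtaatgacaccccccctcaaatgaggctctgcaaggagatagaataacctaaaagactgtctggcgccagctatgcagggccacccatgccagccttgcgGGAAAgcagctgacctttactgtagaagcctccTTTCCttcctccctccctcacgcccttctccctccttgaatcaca
Tarm1: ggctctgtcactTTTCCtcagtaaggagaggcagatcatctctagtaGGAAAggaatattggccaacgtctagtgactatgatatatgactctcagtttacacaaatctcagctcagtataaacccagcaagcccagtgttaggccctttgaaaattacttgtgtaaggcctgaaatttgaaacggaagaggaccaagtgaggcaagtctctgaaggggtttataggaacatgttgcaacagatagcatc
Lilr4b: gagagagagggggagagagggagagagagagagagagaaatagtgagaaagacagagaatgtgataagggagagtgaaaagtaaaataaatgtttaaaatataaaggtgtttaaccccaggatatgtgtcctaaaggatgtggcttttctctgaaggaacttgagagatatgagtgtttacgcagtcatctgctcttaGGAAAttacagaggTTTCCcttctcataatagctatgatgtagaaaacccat

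In these windows the NFAT core occurred at 3 places in Oscar, 3 in Trem2, 2 in Tarm1 and 2 in Lilr4b, that is, upstream of genes that fell and of genes that rose. All 10 receptor genes held it, as did 55.6% of 32851 promoter windows of the same length. The E-box CATGTG lay at positions -6 to -1 of Oscar, counted back from the annotated start, and occurred in 2 of the 10 windows (Oscar and Pirb), against 12.3% of all windows. CACGTG occurred in 0 of the 10, against 6.02%. The letters GAGGAAG, a core of the kind bound by the myeloid factor PU.1, occurred in 6 of the 10 (Oscar, Trem2, Pirb, Pilra, Cd300a and Cd300lf), against 10.6%. In Trem2 this match shares 1 base with an NFAT core. The letters TGANTCA (AP-1) occurred in Trem2 alone of the 10, against 6.75% of all windows, and TTGCNNAA (C/EBP) in Pilra and Cd300a, against 9.56%. The interferon-stimulated response element (ISRE) occurred in Pilra alone, against 2.98%, and overlaps NFAT cores there. A form of the kappaB site occurred in Cd300lb alone, against 1.41%, and also overlaps an NFAT core. Each motif was searched on both strands. A match describes these letters and is not evidence of binding.

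OSCAR is the osteoclast-associated receptor, which pairs with FcRγ and binds collagen. Oscar (chromosome 7, 3609813 to 3616157, minus strand) had 31, 34 and 89 counts in CPN 1 to 3, against 182, 267 and 195 counts in control 1 to 3. These were 3.72, 4.45 and 11.04 CPM in CPN libraries and 17.9, 32.0 and 22.8 CPM in control libraries. The groups did not overlap, and CPN 3 was the highest of the CPN libraries. Oscar fell by 1.92 ± 0.472 on the log2 scale (SE, n = 3 per group, edgeR adjusted p = 0.0163), which is 3.77-fold lower. The call ended without control 3, CPN 1 or CPN 2 (edgeR adjusted p of 0.0514, 0.071 and 0.0804), and without CPN 3 the log2 fold change was -2.56.

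TARM1 is an activating receptor of myeloid cells that also pairs with FcRγ and lies in the same leukocyte receptor region as OSCAR. Tarm1 (chromosome 7, 3486500 to 3502624, minus strand) had 121, 111 and 64 counts in CPN libraries, against 0 counts in each control library. In CPM these were 14.5, 14.5 and 7.94 in CPN libraries. Set against a floor of 3 counts per control library, which averaged 0.335 CPM, the CPN mean of Tarm1 was 36.8-fold higher. With any 1 CPN library left out it was at least 33.6-fold above that floor. The floor was chosen and is not a measured limit. Of genes averaging 6 to 12 counts, 36.9%, 39.9% and 23.8% had 0 counts in control 1 to 3, so the control level may lie above it. The edgeR adjusted p of 0.0003 is given as a description, since Tarm1 was tested only through its CPN libraries. Tarm1 and Oscar lie on the same strand with 107188 bases between them. Like Tarm1, the granulocyte gene S100a8 was tested through its CPN libraries alone, with 156, 264 and 144 counts in CPN libraries against 0, 0 and 1 in control libraries. The 8 granulocyte markers in the files summed to between 18.0 and 34.6 CPM in CPN and to at most 0.351 CPM in control libraries. Elane, Camp and Ngp were at 0 in all 6 libraries and S100a9 had 1 count. The stromal gene Dcn, also tested through CPN alone, had 94, 59 and 98 counts in CPN libraries and 0 in each control library. The 8 stromal markers summed to between 16.6 and 23.1 CPM in CPN and between 0.0981 and 9.34 CPM in control libraries. Over all libraries of a group, Lum, Bglap and Alpl had 74, 21 and 15 counts in CPN and 0, 0 and 4 in control. Most of these CPN counts came from 1 library each. In CPN 1 to 3 they were 11, 63 and 0 for Lum, 0, 0 and 21 for Bglap, and 3, 0 and 12 for Alpl. Col1a1, Col1a2 and Col3a1 had 28, 0 and 13 counts over the CPN libraries and 37, 2 and 13 over the control libraries. Runx2 did not pass (edgeR adjusted p = 0.632). The part of these granulocyte and stromal genes in the rise of Tarm1 was not tested.

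TREM2 binds lipids and lipoproteins, signals through DAP12 and is a receptor of osteoclasts and of lipid-handling macrophages. Trem2 (chromosome 17, 48346401 to 48354147, plus strand) had 259, 304 and 505 counts in CPN libraries, against 2173, 2052 and 1972 counts in control libraries. These were 31.1, 39.8 and 62.7 CPM in CPN libraries and 213, 246 and 231 CPM in control libraries. The highest CPN library lay far below the lowest control library. Trem2 fell by 2.37 ± 0.248 on the log2 scale (SE, n = 3 per group, edgeR adjusted p = 4.95e-05), and it passed under all 16 alternatives, with log2 fold changes between -2.70 and -2.16.  Trem1, an amplifier of inflammatory signalling that also uses DAP12 (chromosome 17, 48232768 to 48246924, plus strand), had 3 counts in CPN 1 and 0 in the other 5 libraries. Both groups were at or under the floor of 3 counts, and no fold is given.

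The Trem genes lie side by side, and the files held 7 entries from Trem1 to Treml1, of which 3 could be tested. Trem3, a further DAP12 receptor of mouse macrophages that lies 852 bases after Trem1, had 111, 166 and 137 counts in CPN libraries, against 12, 2 and 5 counts in control libraries. Trem3 rose by 4.64 ± 0.648 on the log2 scale (SE, edgeR adjusted p = 0.000438), and by 5.34 without control 1. Treml1, the neighbour of Trem2 at a distance of 5768 bases, had 24, 104 and 170 counts in CPN libraries, against 275, 206 and 148 counts in control libraries, and missed the threshold, with -0.88 ± 0.537 on the log2 scale (edgeR adjusted p = 0.342). Trem3 reached the filter's 1.2 CPM in all 3 CPN libraries and in 1 control library, so it was tested through CPN alone and had to be higher there. No 50-base word in the last 400 transcript bases of Trem2, Trem3 or Trem1 occurred in a transcript of another gene.

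**Figure D3:**
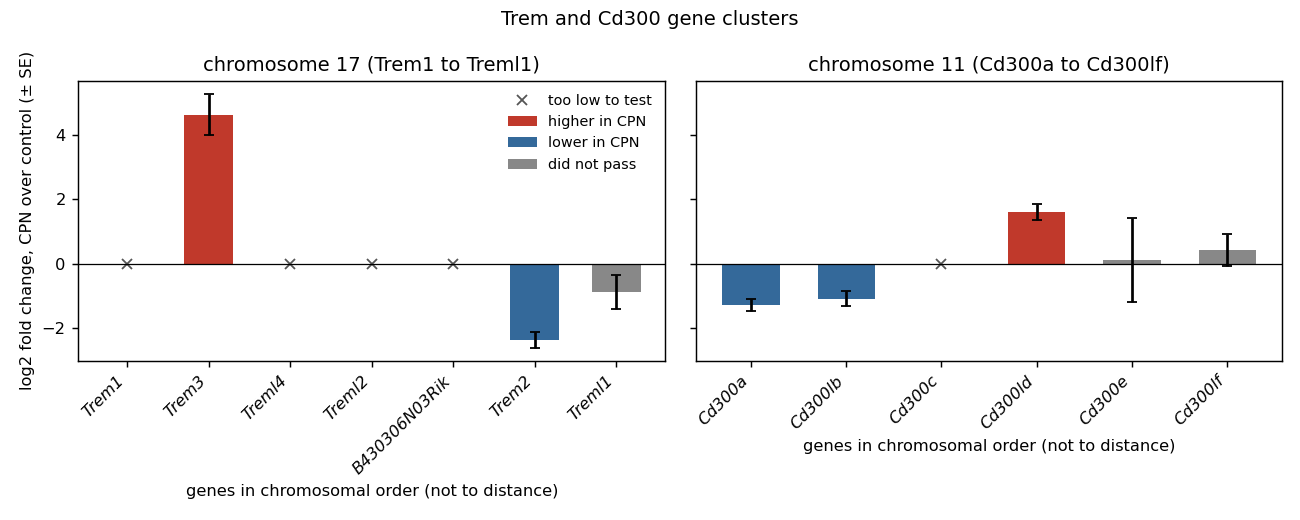
Log2 fold change of CPN over control with its SE (edgeR) for genes of the Trem cluster (chromosome 17) and the Cd300 cluster (chromosome 11), in chromosomal order but not to distance. Crosses mark genes too low to test. Trem3, which was tested through its CPN libraries alone, lies above 0 and Trem2 below, and Cd300ld rises while Cd300a and Cd300lb fall.

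CD300LB is an activating CD300 receptor that signals through DAP12. Cd300lb (chromosome 11, 114922781 to 114934386, minus strand) had 65.3, 51.0 and 87.5 CPM in CPN libraries, against 164, 120 and 150 CPM in control libraries. All CPN values were below all control values. Cd300lb fell by 1.09 ± 0.229 on the log2 scale (SE, n = 3 per group, edgeR adjusted p = 0.00659). CD300A is an inhibitory CD300 receptor that recognises phosphatidylserine and phosphatidylethanolamine. Cd300a (chromosome 11, 114890041 to 114904654, plus strand) had 37.3, 40.7 and 44.9 CPM in CPN libraries, against 95.3, 99.4 and 105 CPM in control libraries. The libraries of each group lay close together and far from the other group. Cd300a fell by 1.29 ± 0.198 on the log2 scale (SE, edgeR adjusted p = 0.000841) and passed under all 16 alternatives, with log2 fold changes between -1.41 and -1.19. An activating and an inhibitory member of the family were therefore both lower. Within a library the ratio of Cd300a to Cd300lb counts was between 0.514 and 0.800 in CPN and between 0.581 and 0.830 in control, so the ratios overlapped.

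CD300LF, an inhibitory receptor that also binds lipids, did not pass the test. Cd300lf (chromosome 11, 115116214 to 115133992, minus strand) had 13.2, 16.6 and 5.58 CPM in CPN libraries, against 10.8, 8.27 and 7.13 CPM in control libraries. The groups overlapped, CPN 3 being the lowest of all 6, and the difference was 0.43 ± 0.499 on the log2 scale (SE, edgeR adjusted p = 0.65). It ranged from 0.12 without CPN 2 to 0.77 without CPN 3. Cd300ld, an activating member of the cluster, had 860, 1273 and 1140 counts in CPN libraries, against 549, 266 and 412 counts in control libraries. It rose 3.07-fold (edgeR adjusted p = 0.000881), and its counts relative to Cd300lb were 1.58, 3.27 and 1.62 in CPN libraries and 0.329, 0.266 and 0.322 in control libraries. Cd300e had 43 counts over the CPN libraries and 44 over the control libraries (edgeR adjusted p = 0.975), and Cd300c was at 0 in all libraries. In all, 2 genes of this cluster fell and 1 rose among the 5 tested, against 6.39% lower and 7.62% higher of all tested genes.

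Lilr4b encodes gp49A, a LILR-type receptor of mouse myeloid and mast cells, and its neighbour Lilrb4a encodes the closely related inhibitory receptor gp49B, which has ITIM motifs that gp49A lacks. Lilr4b (chromosome 10, 51480632 to 51486703, plus strand) had 3355, 5093 and 5234 counts in CPN libraries, against 739, 585 and 499 counts in control libraries. These were 403, 667 and 649 CPM in CPN libraries and 72.5, 70.1 and 58.3 CPM in control libraries. CPN 1 was the lowest CPN library and still lay several fold above each control. Lilr4b rose by 3.10 ± 0.22 on the log2 scale (SE, n = 3 per group, edgeR adjusted p = 4.02e-06), and it passed under all 16 alternatives, with log2 fold changes between 2.97 and 3.30. Lilrb4a, 4252 bases further along, averaged 929 ± 175 CPM in CPN and 161 ± 33.4 CPM in control (SD, n = 3 each) and rose 5.78-fold (edgeR adjusted p = 9.27e-06).

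The pair can share reads. Of the 50-base words in the last 400 transcript bases of Lilr4b, 21.9% also occurred in a transcript of another gene, Lilrb4a or the annotated gene Gm49339. For Lilrb4a the share was 89.2%, with Gm49339 and Lilr4b. How reads with several alignments were handled: not given in the sources used here. Part of either gene's counts may belong to the other. The ratio of Lilr4b to Lilrb4a counts was 0.553, 0.648 and 0.630 in CPN libraries and 0.499, 0.352 and 0.424 in control libraries. The lowest CPN ratio lay above the highest control ratio, so the counts of the pair were not in 1 fixed proportion across the libraries.

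PIR-B is the mouse counterpart of the human LILRB family and an inhibitory receptor for MHC class I. Pirb (chromosome 7, 3711409 to 3720391, minus strand) had 2, 0 and 10 counts in CPN libraries, against 20, 43 and 37 counts in control libraries. The groups did not overlap, but the counts were low and a difference of -2.91 ± 1.29 on the log2 scale did not pass (SE, edgeR adjusted p = 0.169). It was -4.80 without CPN 3, and it passed under none of the 14 alternatives in which it could be tested, which included DESeq2 (adjusted p = 0.0786). Activating PIR-A genes of the same region, which resemble Pirb closely, were too low to test, for example Pira6 with 1, 0 and 1 counts in CPN libraries and 2, 37 and 2 counts in control libraries. PILRA is an inhibitory receptor for sialylated glycoproteins. Pilra (chromosome 5, 137821952 to 137836281, minus strand) had 11.9, 12.3 and 11.3 CPM in CPN libraries, against 10.3, 4.31 and 5.03 CPM in control libraries. All CPN values were above the controls, though control 1 lay close to them, and a difference of 0.85 ± 0.50 on the log2 scale did not pass (SE, edgeR adjusted p = 0.322). It was 1.34 without control 1 (edgeR adjusted p = 0.17). Pilra shares 468 exonic bases with Zcwpw1 on the other strand, 298 of them within the last 500 bases of the gene, and whether counting used strand was not given in the sources used here. Zcwpw1 had 45, 66 and 30 counts in CPN libraries and 43, 40 and 39 counts in control libraries. Of the 50-base words at the end of Pilra transcripts, 10.6% also occurred in Pilrb1 or Pilrb2, its activating partners, so the value of Pilra is uncertain on both counts.

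**Figure D4:**
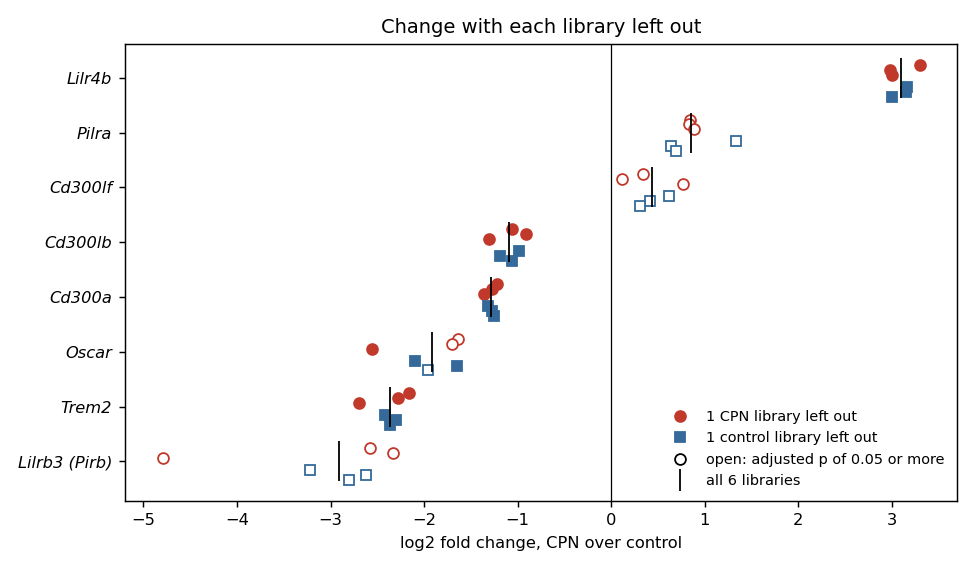
Log2 fold change of CPN over control for 8 receptor genes with each library left out in turn, circles for CPN libraries and squares for control libraries, open where the edgeR adjusted p was 0.05 or more. The vertical bar is the value with all 6 libraries. Lilr4b, Trem2, Cd300a and Cd300lb stay filled throughout, and Oscar has 3 open points.

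Among the other receptors of these families, 6 of 11 tested genes rose in CPN and none fell, by edgeR, against 7.62% higher and 6.39% lower of all tested genes. Trem3, Cd200r4 and Siglec1 passed the low-count filter through CPN libraries alone, which fixed their direction. Of the 7 genes that either group alone would have kept, 4 were higher and 0 lower. At an unadjusted p of 0.05 the counts were 7 higher and 0 lower, for which the share over all genes was not counted. DESeq2 gave 7 and 0, against 1052 higher and 903 lower of the 11092 genes tested. Apart from Trem3, Cd300ld and Lilrb4a, the 6 that rose by edgeR were Cd200r4, Cd200r1 and Cd33. Cd200r4, an activating DAP12-coupled receptor, had 61, 171 and 136 counts in CPN libraries, against 17, 7 and 4 in control libraries, and rose by 3.93 ± 0.684 on the log2 scale (SE, edgeR adjusted p = 0.00195), which was 4.54 without control 1. Cd200r1, the inhibitory receptor for CD200, averaged 30.1 ± 3.60 CPM in CPN and 12.4 ± 6.72 CPM in control (SD, n = 3 each, edgeR adjusted p = 0.0415). Its call ended without any 1 library other than control 2 (up to 0.153) and with library totals alone (0.0537). Cd33, a sialic acid receptor, averaged 28.5 ± 6.39 CPM in CPN and 13.7 ± 0.897 CPM in control (SD, n = 3 each, edgeR adjusted p = 0.039). Its call ended without any 1 of the 6 libraries (up to 0.142) and with library totals alone (0.0679). Siglec1, the macrophage sialoadhesin, had 98, 45 and 62 counts in CPN libraries, against 0, 15 and 5 in control libraries, and missed the threshold (edgeR adjusted p = 0.0513). It passed under 5 of 15 alternatives, among them without control 2 (edgeR adjusted p = 0.00735) and DESeq2 (adjusted p = 0.00264). Sirpa, the inhibitory receptor for CD47, averaged 341 ± 61.9 CPM in CPN and 423 ± 24.0 CPM in control (SD, n = 3 each, edgeR adjusted p = 0.287).

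Of 30 genes of adaptors and proximal signalling, all of which could be tested, 4 fell and none rose, by edgeR. At an unadjusted p of 0.05, 7 were lower and 5 higher, for which the share over all genes was not counted. DESeq2 gave 5 lower and 3 higher, against 903 lower and 1052 higher of the 11092 genes tested. By edgeR, the share of 4 in 30 stands beside the 6.39% of all tested genes that were lower, and none higher beside 7.62%. The median log2 fold change of the list was -0.11. Tyrobp, which encodes DAP12, the partner of TREM1, TREM2, TREM3 and CD300LB, had 424, 423 and 507 CPM in CPN libraries, against 757, 728 and 744 CPM in control libraries. The groups lay apart, and Tyrobp fell by 0.72 ± 0.149 on the log2 scale (SE, edgeR adjusted p = 0.00602). That call ended without both control 3 and CPN 1 (edgeR adjusted p = 0.114), as did those of Inpp5d and Pik3cd. Fcer1g, which encodes FcRγ, the partner of OSCAR and TARM1, missed the threshold, at 744 ± 103 CPM in CPN cells against 581 ± 6.02 CPM in controls (SD, n = 3 each, edgeR adjusted p = 0.158). Syk, the kinase that both adaptors recruit, differed by 0.02 ± 0.208 on the log2 scale (SE, edgeR adjusted p = 0.967).

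Of the phosphatases that ITIM receptors recruit, SHP-1 and SHIP-1 had lower transcripts, and SHP-2 did not pass. Ptpn11, encoding SHP-2, averaged 73.4 ± 23.5 CPM in CPN and 64.9 ± 17.6 CPM in control, with overlapping groups (SD, n = 3 each, edgeR adjusted p = 0.756). Ptpn6, encoding SHP-1, averaged 126 ± 23.8 CPM in CPN and 273 ± 55.7 CPM in control (SD, n = 3 each, edgeR adjusted p = 0.00309). Inpp5d, encoding SHIP-1, averaged 32.1 ± 2.47 CPM in CPN and 62.0 ± 6.95 CPM in control (edgeR adjusted p = 0.0113), a call that ended without control 3 (edgeR adjusted p = 0.0757). Pik3cd, the catalytic phosphoinositide kinase subunit of leukocytes, fell 2.38-fold (edgeR adjusted p = 0.0117), and this ended without control 1 or control 3 (0.0558 and 0.0507). Without control 3 there were 2 lower genes in the list. Card9, which links ITAM receptors to NF-kB and was tested through CPN libraries alone, had 21, 58 and 51 counts in CPN libraries, against 0, 0 and 7 in control libraries, and missed the threshold (edgeR adjusted p = 0.0565). It passed under 3 of 14 alternatives, namely without control 3 (edgeR adjusted p = 0.0249), by DESeq2 (adjusted p = 0.00354) and with no low-count filter (edgeR adjusted p = 0.0213). Vav1, Lcp2 and Dok3, cytoplasmic signalling proteins of immune receptors, had log2 fold changes of 0.60, 0.77 and -0.74. None of them passed by edgeR (adjusted p of 0.0641, 0.0659 and 0.0926), and all passed by DESeq2 (adjusted p of 0.0375, 0.0233 and 0.0416). Of 16 alternatives, Vav1 passed under 1, and Lcp2 and Dok3 under 3 each.

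**Figure D5:**
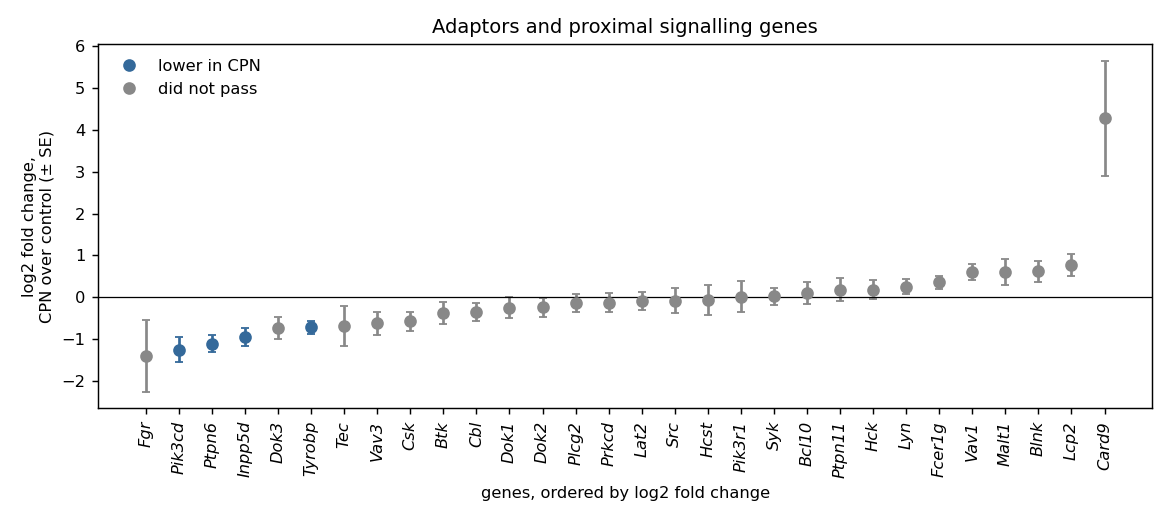
Log2 fold change of CPN over control with its SE (edgeR) for 30 genes of adaptors and proximal signalling, ordered by value. Pik3cd, Ptpn6, Inpp5d and Tyrobp pass as lower, and Card9 has the highest value with a wide SE.

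Of the 11 tested genes of TREM2 shedding, cleavage and ligands none was higher by edgeR, against 7.62% of all tested genes. At an unadjusted p of 0.05, 2 were higher, for which the share over all genes was not counted. DESeq2 gave 1 higher, against 1052 of the 11092 genes tested. Apoe, a lipoprotein ligand of TREM2, had 16.8, 14.4 and 9.80 CPM in CPN libraries, against 72.1, 70.4 and 54.8 CPM in control libraries, and fell by 2.27 ± 0.274 on the log2 scale (SE, edgeR adjusted p = 0.000147). Anxa5, which binds phosphatidylserine, had all CPN values above the controls but did not pass (edgeR adjusted p = 0.0592). It passed under 3 of 16 alternatives, namely by DESeq2 (adjusted p = 0.0168), by limma-voom (adjusted p = 0.0324) and without control 2 (edgeR adjusted p = 0.0251). Neither the sheddase genes Adam10 and Adam17 nor the 6 tested genes of the gamma-secretase complex passed.

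Of 15 transcription factor genes that are known to act at Oscar or in myeloid receptor genes, 4 were lower and 2 higher. Among all tested genes 6.39% were lower and 7.62% higher. Nfatc1, which activates Oscar, averaged 136 ± 29.3 CPM in CPN and 581 ± 173 CPM in control (SD, n = 3 each, edgeR adjusted p = 0.000103). Mitf, which acts at Oscar through E-boxes, averaged 98.1 ± 8.65 CPM in CPN and 236 ± 6.97 CPM in control (edgeR adjusted p = 0.000278). Cebpb, a factor of myeloid activation, rose 2.57-fold (edgeR adjusted p = 0.00118). The others that passed were Spi1 (PU.1) and Fos, which were lower, and Irf8, which was higher.

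The genes whose log2 CPM followed Oscar most closely over the 6 libraries, among 6545 genes with at least 20 CPM on average, were Hs6st1, Xpr1 and Ube2q1, with Pearson r of 0.986, 0.985 and 0.985. For Trem2 they were Aplp2, Myo1f and Tbc1d16, with r of 0.998, 0.996 and 0.996. Hs6st1 encodes a heparan sulfate sulfotransferase, Xpr1 a phosphate exporter, Aplp2 a relative of the amyloid precursor protein and Myo1f a myosin of leukocytes. The 6 points form 2 groups of 3, so each r includes the difference between the groups. Myo1f averaged 21.3 CPM in CPN cells, against 160 CPM in controls. Ube2q1 averaged 306 CPM in CPN cells, against 372 CPM in controls (edgeR adjusted p = 0.283).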

How the data were processed

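Per the labels' protocols, Trizol RNA of 6 samples of RAW 264.7 cells went into Lexogen QuantSeq libraries. Each sample has a table deposited by the authors with whole-number counts for each gene entry. The submitters' processing notes name the build mm10, Bowtie2 and bedtools, without versions. Annotation, strand setting and treatment of multiple alignments: not given in the sources used here. As QuantSeq reads come from transcript ends, CPM were not divided by gene length, and levels were not compared between genes.

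Tests used edgeR 4.0.16 in R 4.3.3 (TMM, filterByExpr with minimum count 10 and minimum total 15, quasi-likelihood test, Benjamini-Hochberg adjustment). The whole table was fitted (common dispersion 0.355 as a coefficient of variation). The SE is the log2 fold change divided by the square root of F. The code was tested on simulated counts. Alternatives used DESeq2 1.42.0, limma 3.58.1 (voom), other scalings and filters, the replicate number as a block, removal of the ribosomal RNA precursor Rn45s, and libraries left out singly or as the pair control 3 and CPN 1. The receptor genes, lists and alternatives were chosen with earlier results of these data known. Beyond the receptor genes, the genes named are those of lowest p: up to 8 in the lists of signalling genes and of related receptors, up to 3 in each of the shedding and transcription factor lists, and 3 genes alike to Oscar and to Trem2. Fcer1g, Syk, Treml1, Cd300e, Cd300c, Pira6, Zcwpw1 and the remaining genes named were added for their role or position, some after their values were seen. Of the list symbols, 3 were in no entry. In the shedding and ligand list, 1 gene is not reported here. Coordinates are GENCODE M21 (GRCm38, the build of mm10).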

Additional observations from a re-analysis of the deposited data

How the results depend on the processing

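The receptor genes gave 6 calls (4 lower, 2 higher) under 12 of 16 alternatives, 5 without control 3, CPN 1 or CPN 2, and 4 without both control 3 and CPN 1, where 2 were lower because Oscar and Cd300lb did not pass (edgeR adjusted p = 0.178 and 0.127). That pair was left out because an earlier analysis found these libraries the least sparse. The count of all genes that passed was 446 without that pair and between 884 and 1954 with 1 library left out, against 1554 with all 6. Values under the alternatives were taken for 31 genes, namely the tested receptor genes and the list genes picked for lowest p. None of these 31 reversed direction, and genes with small p are the least likely to reverse. Genes added for their role or position, such as Syk, Fcer1g, Ptpn11, Treml1 and Cd300e, were not among them. For genes tested through 1 group alone, among them Tarm1, 1 of the 2 higher receptor genes, the low-count filter fixed the direction. Without both control 3 and CPN 1 the signalling list had 1 lower gene, since Ptpn6 alone passed. With the replicate number as a block, 1326 genes and the same count of 6 receptor genes passed. The calls of those 31 genes were the same but for Cd33 (edgeR adjusted p = 0.0681). Deviations of same-numbered libraries from their group means had Pearson r between -0.0742 and 0.0394 across genes. For libraries of different number r lay between -0.0886 and 0.0889. With 3 libraries per group this cannot tell whether same-numbered libraries shared a culture or batch, and the labels do not say. Removal of Rn45s, which took between 9.04% and 16.6% of counts, gave 1560 genes. Trem1 and the PIR-A genes did not pass the low-count filter, so no change is given for them.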
